A study of Mus musculus with 2 samples.

Results

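The respiratory chain genes were taken as all genes listed in both deposited count tables whose symbol starts with Nduf, Sdha, Sdhb, Sdhc, Sdhd, Uqcr, Cox4, Cox5, Cox6, Cox7, Cox8, Atp5 or mt-. This gave 105 of the 15182 genes in both tables. Of these, 92 are nuclear genes, 46 of complex I, 8 of complex II, 8 of complex III, 14 of complex IV and 16 of complex V, and 13 are encoded by mitochondrial DNA, 7 of complex I, 1 of complex III, 3 of complex IV and 2 of complex V. The prefixes also took in 12 assembly factors (Ndufaf and Sdhaf genes), which are not subunits of the finished complexes, and Atp5s, listed by RefSeq as the distal assembly factor Dmac2l. Ndufa4, a cytochrome c oxidase subunit despite its symbol, was counted with complex I by its prefix.

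The 2 libraries held single cells of enteroids, self-organising cultures of epithelium grown here from ileal crypts of mice 4 months of age (strain C57Bl6/129sv) and sorted for live cells on day 8 of culture. Taf4IEC enteroids carry Taf4 lox alleles and a Villin-CreERT2 driver, active in intestinal epithelium when 4-OHT is given, and received 1 µM 4-OHT for 3 days. Taf4 encodes a subunit of TFIID, the factor that places RNA polymerase II at promoters. The label of the control library names wild-type organoids in ethanol, whereas the methods of the study describe Taf4 lox/lox enteroids given 4-OHT, so that effects of 4-OHT, of the Cre and of Taf4 loss cannot be told apart here.

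There was 1 library per group, so no difference has a replicate check, no test was made, and all intervals are 95% intervals of counting error alone. The control library held 39947009 UMIs in 2563 cells (median 16749 per cell) and the Taf4IEC library 24990128 UMIs in 1811 cells (median 2254). A UMI marks 1 captured transcript, read from its 3′ end, so a level does not scale with transcript length. Cells under 2000 UMIs made up 17.3% of the control and 49.1% of the Taf4IEC cells, and 2 cell barcodes occurred in both libraries. Taf4 itself had 278 UMIs in the control and 236 in the Taf4IEC library, 0.0696 and 0.0944 per 10000, so that these 3′ counts did not show its loss. The deleted exons were not looked at, and 3′ counts outside them check nothing.

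The respiratory chain passes electrons from NADH and succinate to oxygen. Complex I (NADH dehydrogenase) and complex II (succinate dehydrogenase) feed electrons to complex III (cytochrome bc1) and on to complex IV (cytochrome c oxidase), and complex V (ATP synthase) uses the proton gradient that I, III and IV build. Mitochondrial DNA encodes a few core subunits of every complex but II, and the nuclear genome encodes the rest. In the intestinal epithelium, absorptive enterocytes are rich in mitochondria, and the balance of oxidative metabolism and glycolysis differs between crypt cells and villus cells.

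Summed over all cells, the nuclear level of every complex was close in the 2 libraries, and the mitochondrial levels differed more for complexes I and III. Levels are UMIs per 10000 UMIs of all genes, and ratios are log2 of Taf4IEC over control. The 92 nuclear genes together had 412 in the control and 449 in the Taf4IEC library (log2 ratio 0.12). Complex I had 124 and 137 (0.15), complex II 9.90 and 10.8 (0.13), complex III 47.9 and 54.8 (0.19), complex IV 115 and 125 (0.12) and complex V 116 and 121 (0.07). All 5 nuclear sums were thus a little higher in the Taf4IEC library, but 4 of the 5 changed sign (-0.11 to 0.01) when the total was taken without mt- genes, ribosomal protein genes, AY036118 and Gm42418. The median ratio of all 9998 genes tested was 0.16 on the first scale and -0.03 on the second, so a ratio near 0.16 is that of a typical gene.

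**Figure D1:**
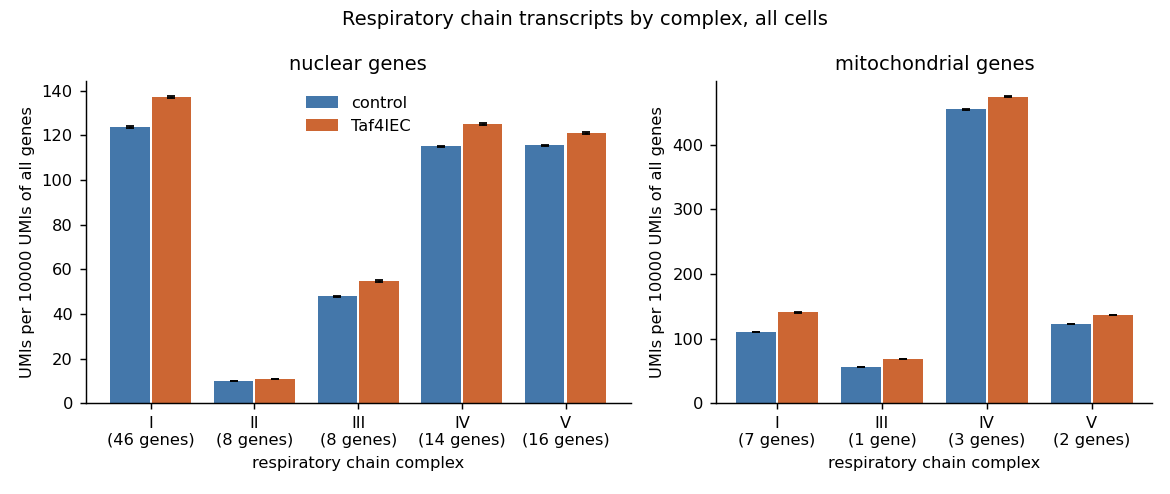
Summed levels of the respiratory chain genes by complex, nuclear genes on the left and mitochondrial genes on the right, in UMIs per 10000 UMIs of all genes (linear axes from 0). Bars are the control and the Taf4IEC library, with exact Poisson 95% intervals of counting error. Complexes I, IV and V have nuclear sums between 115 and 137, complex II about 10, and mitochondrial complex IV stands at 455 and 474. The ratios between bars are small for the nuclear complexes, and lie between -0.11 and 0.01 with ribosomal and mitochondrial genes out of the total. They are larger for mitochondrial complexes I and III.

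A gene was called where its level differed by 1.5-fold or more (log2 0.58) and both libraries together held at least 200 UMIs of it. Of the 89 nuclear members with that many UMIs, 2 were called higher in the Taf4IEC library, Cox7a1 and Ndufa1, and 0 lower, where 16% of all genes were higher and 7.44% lower. None of the 13 mitochondrial genes was called. The median ratio was 0.13 for nuclear members, 0.15 for mitochondrial members and 0.18 for the 12 assembly factors. By complex, the nuclear medians were 0.13 (I), 0.20 (II), 0.09 (III), 0.17 (IV) and 0.12 (V). The members as a group therefore sat at the median of all genes with fewer calls than the rest, whereas cytosolic ribosomal protein genes had a median of -0.42, with 20 of 88 lower and 4 higher. The 3 nuclear members under 200 UMIs, Cox8b, Cox6b2 and Ndufa4l2, were not called.

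**Figure D2:**
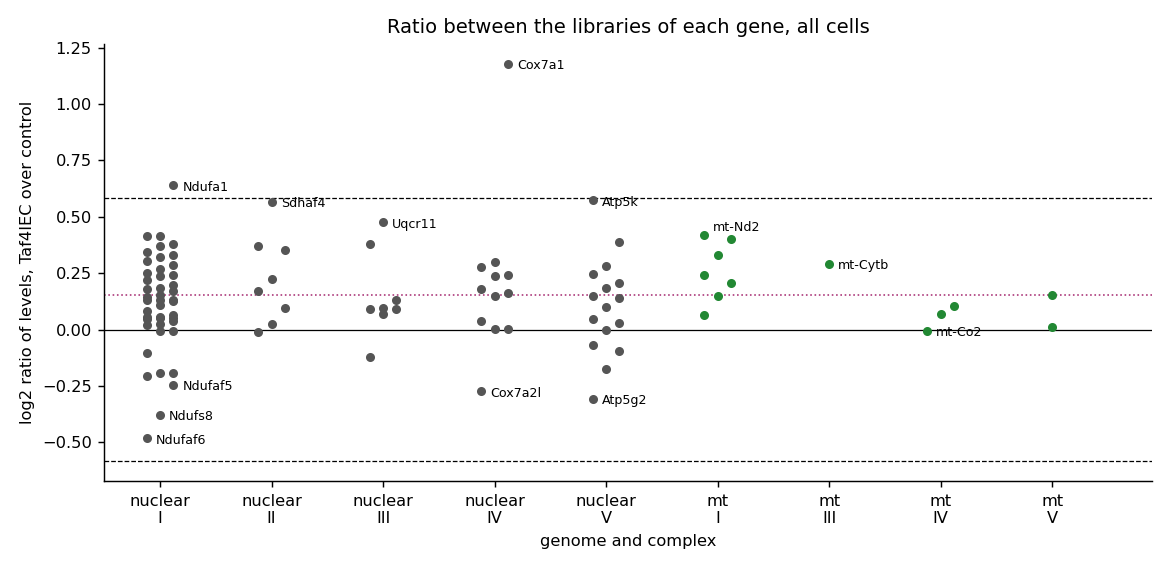
Log2 ratio of levels, Taf4IEC over control, of each nuclear member with at least 200 UMIs (grey) and each mitochondrial gene (green), by complex. Dashed lines mark 1.5-fold and the dotted line the median of all genes. Cox7a1 (1.18) and Ndufa1 (0.64) lie past the upper line, and the lowest gene, Ndufaf6 (-0.48), lies inside the lower one.

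Cox7a1 encodes an isoform of cytochrome c oxidase subunit 7A known from heart and muscle. It had 1007 UMIs in the control and 1426 in the Taf4IEC library, 0.252 and 0.571 per 10000, a ratio of 1.18 (1.06 to 1.30). Within each named cell class its ratio was smaller, from 0.09 to 0.59, than over all cells, and its level differed more between classes than between libraries. Ndufa1, a small accessory subunit of complex I, had 1.35 and 2.10 per 10000 (0.64, 0.59 to 0.70). With ribosomal and mitochondrial genes out of the total, Cox7a1 stayed past 1.5-fold (1.00) and Ndufa1 did not (0.46).

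The next genes in order fell just inside 1.5-fold. Atp5k, the e subunit of ATP synthase, had 2.76 and 4.10 per 10000 (0.57, 0.53 to 0.61). Sdhaf4, an assembly factor of complex II, had 0.358 and 0.530 (0.57, 0.46 to 0.68), and Uqcr11, a small subunit of complex III, 6.69 and 9.30 (0.48, 0.45 to 0.50). At the other end stood Ndufaf6, an assembly factor of complex I, with 0.332 and 0.238 (-0.48). Ndufs8, an iron-sulphur subunit of complex I, had 1.57 and 1.21 (-0.38), Atp5g2, one of 3 genes for the c subunit of ATP synthase, 7.99 and 6.45 (-0.31), Cox7a2l, a supercomplex factor related to subunit 7A, 5.29 and 4.38 (-0.27), and Ndufaf5, another complex I assembly factor, 0.103 and 0.0868 (-0.24). Genes of 1 complex thus stood at both ends of the order, for complexes I, IV and V alike.

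The catalytic and core subunits differed little. In complex II, Sdha, the flavoprotein that oxidises succinate, had 1.61 and 1.60 per 10000 (-0.01), and Sdhb, its iron-sulphur partner, 2.25 and 2.28 (0.02). The membrane anchors Sdhc and Sdhd had 2.00 and 2.14 (0.09), and 2.89 and 3.25 (0.17). In complex I, Ndufs1 had 0.553 and 0.575 (0.06) and Ndufv1, the NADH-binding subunit, 1.43 and 1.62 (0.18). In complex III, the Rieske protein gene Uqcrfs1 had 3.44 and 3.67 (0.09) and the core protein gene Uqcrc1 2.13 and 2.23 (0.07). In complex V, the catalytic beta subunit Atp5b had 13.1 and 11.6 (-0.17) and the alpha subunit Atp5a1 8.25 and 7.73 (-0.09). The ratios of these 10 core genes lay between -0.17 and 0.18.

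The promoters of the 2 called genes and of 2 genes from the 2 ends of complex V are printed because the same letters occurred at both ends. RefSeq windows of 300 bases, 250 before to 50 after the start, were matched for 79 of the 92 nuclear members and searched on both strands for the letters of motifs of known regulators of respiratory genes. The palindromic NRF1 motif, spelled by the capitals below, reads the same on both strands and was in the windows of 7 members (8.86%) and of 1.07% of all 27025 genes in the table. The YY1 motif AAGATGGCG was in 8 members (10.1%) against 1.64%, the ERR motif TCAAGGTCA in 2 (2.53%) against 0.466%, the ETS/GABP motif CCGGAAGT in 5 (6.33%) against 4.31%, and TATAAA in 7 (8.86%) against 15.7%. The windows below are on GRCm38.p6, 5′ to 3′ on the gene's strand, with a searched motif in capitals. Cox7a1 lies at chr7:30183921-30184220 (plus strand), Ndufa1 at chrX:37191189-37191488, Atp5k at chr5:108434350-108434649 and Atp5g2 at chr15:102670998-102671297 (all 3 minus strand).
Cox7a1: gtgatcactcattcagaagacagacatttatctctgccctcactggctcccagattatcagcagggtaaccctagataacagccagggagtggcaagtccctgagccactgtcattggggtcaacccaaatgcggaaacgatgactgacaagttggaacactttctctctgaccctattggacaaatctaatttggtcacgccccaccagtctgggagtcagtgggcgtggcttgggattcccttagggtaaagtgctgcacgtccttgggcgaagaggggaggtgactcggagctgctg
Ndufa1: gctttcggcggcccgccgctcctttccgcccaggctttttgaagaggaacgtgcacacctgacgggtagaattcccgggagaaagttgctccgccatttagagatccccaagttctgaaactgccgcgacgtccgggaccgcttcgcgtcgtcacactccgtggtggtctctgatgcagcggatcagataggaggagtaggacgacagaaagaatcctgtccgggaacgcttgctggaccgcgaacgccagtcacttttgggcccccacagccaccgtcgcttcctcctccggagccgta
Atp5k: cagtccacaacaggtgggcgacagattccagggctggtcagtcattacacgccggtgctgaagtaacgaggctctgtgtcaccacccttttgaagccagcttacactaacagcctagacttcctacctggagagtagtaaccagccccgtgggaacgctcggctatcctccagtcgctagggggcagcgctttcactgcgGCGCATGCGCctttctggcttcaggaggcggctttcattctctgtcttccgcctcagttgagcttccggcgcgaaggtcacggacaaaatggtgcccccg
Atp5g2: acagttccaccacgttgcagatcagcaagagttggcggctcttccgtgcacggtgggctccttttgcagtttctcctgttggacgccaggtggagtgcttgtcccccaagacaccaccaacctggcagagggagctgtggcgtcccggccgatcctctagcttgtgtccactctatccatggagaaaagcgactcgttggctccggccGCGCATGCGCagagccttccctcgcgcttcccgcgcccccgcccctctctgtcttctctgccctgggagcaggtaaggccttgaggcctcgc
The windows of Cox7a1 and Ndufa1 held none of the searched letters. Atp5k, the third highest of the members, and Atp5g2, the third lowest, each held the NRF1 letters, starting 50 and 42 bases before the start. A match of letters describes the sequence and shows no binding.

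The 13 mitochondrial genes differed from one another in ratio although they are read from the same DNA. Together they had 744 per 10000 in the control and 820 in the Taf4IEC library (0.14), with a change of sign to -0.04 under that second total, and to -0.33 with every cell thinned to 500 UMIs. The complex I genes summed to 110 and 141 (0.35), mt-Cytb of complex III to 56.0 and 68.5 (0.29), the complex V genes to 123 and 136 (0.15) and the complex IV genes to 455 and 474 (0.06). The highest ratios were those of mt-Nd2 (27.8 and 37.2, 0.42), mt-Nd4 (29.0 and 38.2, 0.40) and mt-Nd1 (38.7 and 48.7, 0.33). They were followed by mt-Nd4l (1.80 and 2.12, 0.24), mt-Nd3 (7.57 and 8.74, 0.21) and mt-Nd5 (5.06 and 5.61, 0.15). The light-strand gene mt-Nd6 had 0.34 and 0.356 (0.07).

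The mitochondrial oxidase genes sat at the low end, as did mt-Atp8 and mt-Nd6. The core subunit mt-Co1 had 173 and 181 (0.07), mt-Co2 136 and 135 (-0.01), and mt-Co3 147 and 158 (0.10). For ATP synthase, mt-Atp6 had 122 and 136 (0.15) and mt-Atp8 0.757 and 0.764 (0.01). As a share of all mitochondrial UMIs, which does not depend on the total, mt-Co1 was 23.2% in the control and 22.1% in the Taf4IEC library, mt-Co2 18.3% and 16.5%, mt-Nd2 3.73% and 4.53%, and mt-Cytb 7.53% and 8.36%. Some of these genes share bases, 43 between mt-Atp8 and mt-Atp6 and 7 between mt-Nd4l and mt-Nd4, and 14 between mt-Nd5 and mt-Nd6 on opposite strands, so UMIs within each pair are uncertain. RefSeq lists a nuclear pseudogene copy of mt-Atp6 on chromosome 1, which was in neither table. Mitochondrial UMIs per nuclear respiratory chain UMI were 1.81 in the control and 1.83 in the Taf4IEC library.

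Several subunits exist as paralogs, and within 2 families the shares differed between the libraries. Of Cox7a family UMIs, Cox7a2, the common form, took 57.8% in the control and 65.5% in the Taf4IEC library, Cox7a2l 40.2% and 30.6%, and Cox7a1 1.92% and 3.98%. The share of Cox7a2l was lower in the Taf4IEC library in each of the 4 named classes held by both, at 40.7% and 28.8% in stem-like, 31.5% and 24.3% in enterocyte-like, 48.1% and 37.5% in enteroendocrine-like and 43.5% and 41.4% in Paneth/goblet-like cells. Among the c subunit genes, which encode the same mature protein, Atp5g1 took 39.7% and 41.0%, Atp5g2 35.0% and 27.2%, and Atp5g3 25.2% and 31.8%. These shares are within a family, so the choice of total does not move them.

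**Figure D3:**
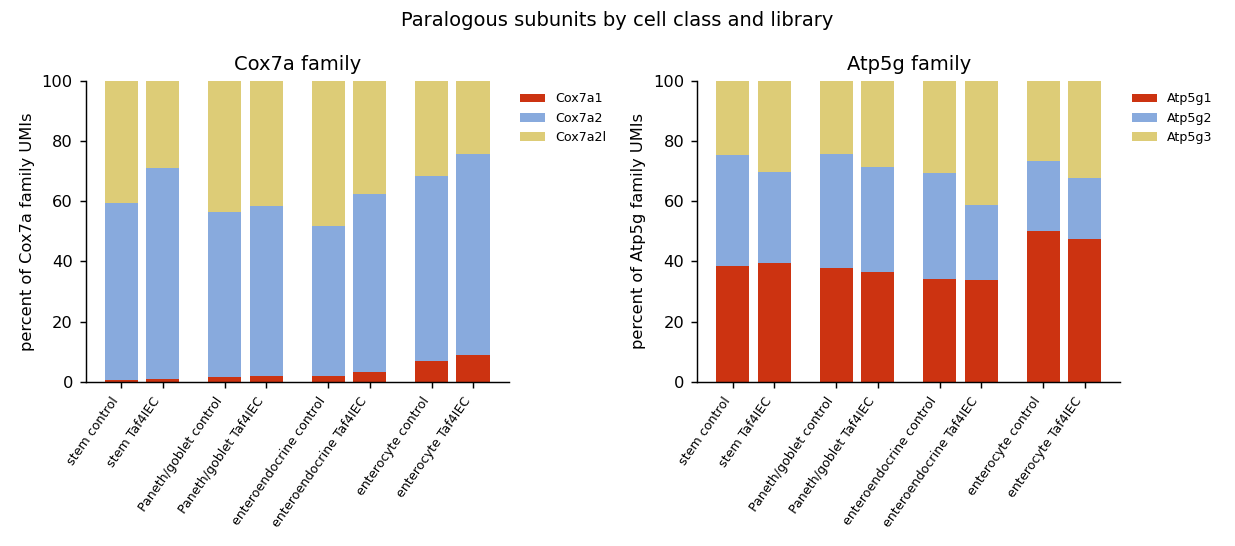
Share of the UMIs of the Cox7a family (left) and of the Atp5g family (right) held by each gene, in percent, by cell class and library (bars stacked to 100%). In each class the Cox7a2l and the Atp5g2 part is smaller in the Taf4IEC bar, and Cox7a1 is visible mainly in enterocyte-like cells, at 6.95% and 8.82%.

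The other paralogs were near absent beside their common form. Cox4i2 and Cox8c were listed in neither table, and Cox6a2, the muscle form of subunit 6A, was listed in the control alone, with 37 UMIs. The common forms had close levels, at 20.7 and 20.8 for Cox4i1 (0.00), 4.93 and 5.98 for Cox6a1 (0.28), 9.52 and 11.2 for Cox6b1 (0.24), 16.9 and 18.9 for Cox8a (0.16) and 7.81 and 8.87 for Ndufa4 (0.18). Atp5g3 had 5.75 and 7.53 (0.39), Atp5g1 9.05 and 9.71 (0.10) and Cox7a2 7.61 and 9.38 (0.30).

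Cells were clustered in each library without the respiratory chain genes, and clusters were named from marker lists. The control held 914 stem-like, 212 enterocyte-like, 191 Paneth/goblet-like and 262 enteroendocrine-like cells, and the Taf4IEC library 266, 172, 134 and 206, with 188 tuft-like cells that had no named counterpart in the control. A control cluster of 275 cells had Rgs13, Lrmp and Ltc4s among its leading genes, as the tuft-like cluster did, but met more stem than tuft markers and stayed unnamed, and these 3 genes were named after their values were seen. Under the other clustering and naming settings the Taf4IEC library held 9 to 277 tuft-like cells and, where the class was named, 37 to 444 stem-like cells. Its Paneth/goblet-like class held 134 to 253 cells and its enterocyte-like class 133 to 253, so these classes are uncertain in size. Control cells were named tuft-like too under some of these settings. They were 85, beside 15 Taf4IEC cells, with the members kept in clustering, and 6, beside 9, with the libraries clustered together. Unnamed were 984 control and 845 Taf4IEC cells, the latter with a median of 718 UMIs. Enterocyte markers separated the enterocyte-like from the stem-like cells, summing to 205 and 242 per 10000 in enterocyte-like and to 4.91 and 5.71 in stem-like cells. The stem list summed to 23.4 and 25.5 in stem-like and to 1.03 and 0.535 in enterocyte-like cells, although the leading genes of most stem-like clusters were genes of cell division. Stem-like cells of the Taf4IEC library also held 62.4 of Paneth/goblet markers, above their stem list, beside 12.6 in the control. Tuft-like cells held 0.671 of tuft markers beside 19.4 of stem and 15.4 of Paneth/goblet markers. Markers of blood, stromal and endothelial cells summed to at most 0.092 per 10000 in any class, with 3 to 6 of the 7 listed genes at 0.

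Nuclear respiratory chain transcripts were most abundant in enterocyte-like cells of both libraries, at 582 per 10000 in the control and 572 in the Taf4IEC library. Stem-like cells had 410 and 449, enteroendocrine-like cells 321 and 330 and Paneth/goblet-like cells 305 and 274. Tuft-like cells of the Taf4IEC library had 440, and unnamed cells 408 and 503. The order of the 4 classes named in both libraries was the same, and no 2 neighbours had overlapping counting intervals. Those intervals do not measure the spread within a class. In the control the larger enteroendocrine-like cluster (207 cells) had 303, under the 305 of Paneth/goblet-like cells, and the other (55 cells, median 931 UMIs) had 470. In the Taf4IEC library the enteroendocrine-like clusters had 301 to 532 and the stem-like clusters 229 to 456. Mitochondrial transcripts followed a similar order, at 852 and 1001 in enterocyte-like, 728 and 740 in stem-like, 668 and 698 in enteroendocrine-like and 672 and 581 in Paneth/goblet-like cells, where the last 2 classes were close in the control. Unnamed cells had 774 and 865, sums in which deep cells weigh most.

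**Figure D4:**
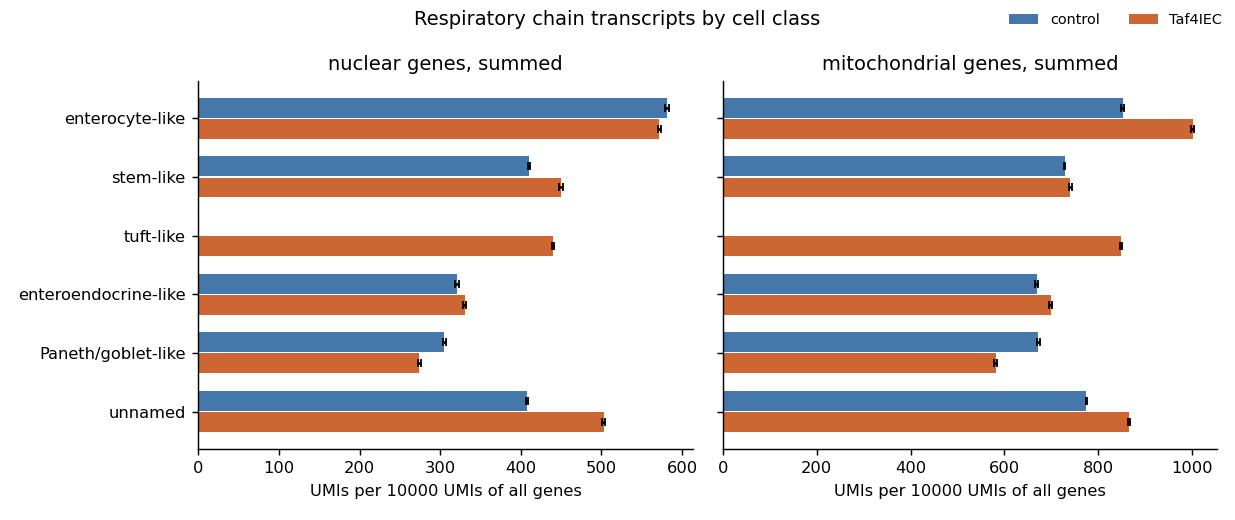
Summed levels of nuclear (left) and mitochondrial (right) respiratory chain genes by cell class and library, in UMIs per 10000 UMIs of all genes (linear axes from 0), with exact Poisson 95% intervals of counting error. Enterocyte-like cells stand highest in both panels (582 and 572, 852 and 1001) and Paneth/goblet-like cells lowest for nuclear genes (305 and 274). In the clustering shown, tuft-like cells were named in the Taf4IEC library alone.

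Set against stem-like cells of the same library, enterocyte-like cells had more of each nuclear complex. In the control the log2 ratio was 0.69 for complex III, 0.59 for IV, 0.51 for II, 0.47 for I and 0.36 for V. In the Taf4IEC library it was 0.53, 0.51, 0.34, 0.23 and 0.23. In the control 25 of 89 nuclear members were higher by 1.5-fold or more and 5 lower (median 0.40), where 20.6% of all genes were higher and 42.7% lower and the median of all genes was -0.37. In the Taf4IEC library 14 of 83 were higher and 5 lower (median 0.25), where 24.1% of all genes were higher and 39.2% lower (median -0.24). The nuclear members thus lay above the median gene in both libraries, in a comparison in which most genes were lower in enterocyte-like cells. Their share called higher was above that of all genes in the control and below it in the Taf4IEC library.

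Cox7a1 had the largest ratio of the members with at least 200 UMIs in both libraries. Its level was 0.0931 per 10000 in stem-like and 1.33 in enterocyte-like cells of the control (3.83, 3.59 to 4.08), and 0.139 and 1.69 in the Taf4IEC library (3.60, 3.16 to 4.08). Ndufa6, an accessory subunit of complex I, went from 7.25 to 18.5 in the control (1.35) and from 6.17 to 17.6 in the Taf4IEC library (1.51). Uqcrq, a small subunit of complex III, had ratios of 1.33 and 1.11, Sdhb 1.20 and 0.83, and Ndufv3, an accessory complex I subunit, 1.04 and 1.26. The c subunit genes split, since Atp5g1 had ratios of 0.53 and 0.28 and Atp5g2 of -0.50 and -0.57.

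The 12 assembly factors were near the background of all genes in the control. There 1 of 12 was higher in enterocyte-like cells (Ndufaf8, 0.80) and 5 were lower, with a median of -0.44, beside 42.7% lower and a median of -0.37 for all genes. In the Taf4IEC library 4 of the 7 with at least 200 UMIs were lower, with a median of -1.16, beside 39.2% and -0.24. Ndufaf2, a complex I assembly chaperone, fell most, from 0.582 to 0.131 in the control (-2.15) and from 0.826 to 0.172 in the Taf4IEC library (-2.26). Ndufaf4 (-0.98 and -1.25) and Sdhaf1 (-0.996 and -1.16), which serves the iron-sulphur centres of complex II, were lower in both. Ndufaf5 (-1.40) and Ndufaf7 (-1.14) were lower in the control and had under 200 UMIs in the Taf4IEC classes, and Ndufaf6 was lower in the Taf4IEC library (-1.40) and had -0.36 in the control. All 5 nuclear members called lower in the control, and 4 of the 5 in the Taf4IEC library, were assembly factors, the other being Ndufs8, which was named after its value was seen.

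The mitochondrial genes split between the 2 classes as well. The level of mt-Co1 was 142 in stem-like and 299 in enterocyte-like cells of the control (1.07), and 123 and 282 in the Taf4IEC library (1.19). The level of mt-Cytb went the other way, from 64.4 to 28.3 in the control (-1.19) and from 81.2 to 48.0 in the Taf4IEC library (-0.76). In the control mt-Nd3 (-0.94), mt-Nd4l (-0.79) and mt-Atp8 (-0.67) were also lower by 1.5-fold or more in enterocyte-like cells, and in the Taf4IEC library mt-Co2 was higher (0.63). The UMIs of mt-Nd4l and mt-Atp8 are uncertain, since these genes overlap mt-Nd4 and mt-Atp6. Those more abundant partners fell less in the control, from 30.5 to 24.5 and from 124 to 112. As a share of mitochondrial UMIs, mt-Co1 took 35.1% in enterocyte-like and 19.5% in stem-like cells of the control, and 28.2% and 16.7% in the Taf4IEC library, and mt-Cytb took 3.32% and 8.85%, and 4.79% and 10.97%. Both differences had the same direction in the 2 libraries and do not depend on the total.

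**Figure D5:**
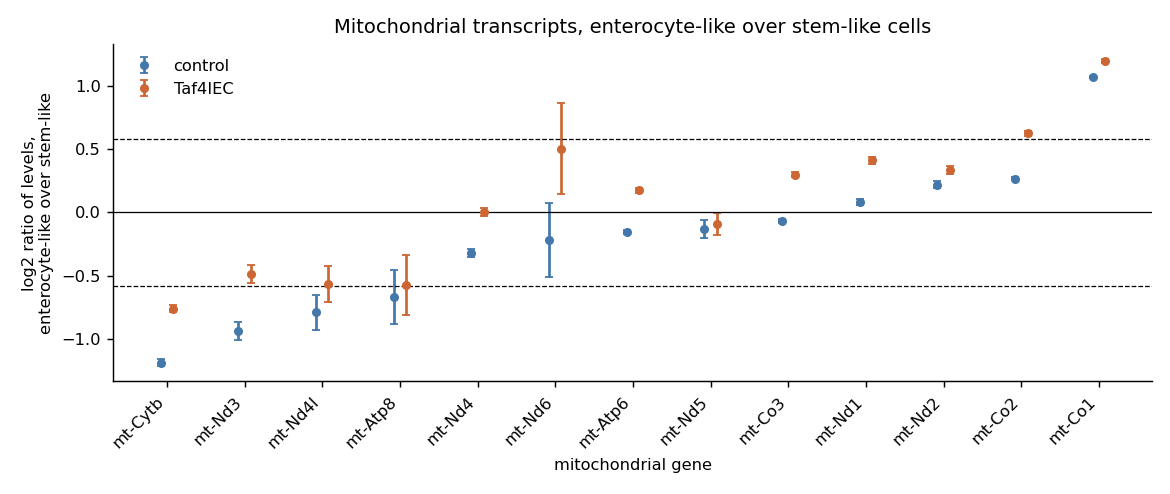
Log2 ratio of the level of each mitochondrial gene in enterocyte-like over stem-like cells, in the control and the Taf4IEC library, ordered by the control value. Error bars are exact 95% intervals of counting error and dashed lines mark 1.5-fold. The values of mt-Co1 (1.07 and 1.19) and mt-Cytb (-1.19 and -0.76) lie at the ends.

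Between the libraries, enterocyte-like cells differed in mitochondrial and hardly in nuclear members. Their nuclear sum was 582 and 572 (-0.02), and 0 of 81 nuclear members were called in either direction, where 5.69% of all genes were higher and 4.85% lower. Their mitochondrial sum was 852 and 1001 (0.23), and 4 of 13 genes were called higher, mt-Cytb (28.3 and 48.0, 0.76), mt-Nd3 (4.45 and 7.19, 0.69), mt-Nd4 (24.5 and 37.9, 0.63) and mt-Nd6 (0.292 and 0.441, 0.59). The oxidase genes differed less, with mt-Co1 at 299 and 282 (-0.08), mt-Co2 at 158 and 178 (0.17) and mt-Co3 at 141 and 182 (0.36). Mitochondrial UMIs per nuclear respiratory chain UMI went from 1.46 to 1.75. The median depth of these cells was 20229 UMIs in the control and 32987 in the Taf4IEC library, and Gm42418, a gene known to take up ribosomal RNA reads, had 33.9 and 46.7 per 10000. Their part in the difference was not tested.

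In the same cells the nuclear genes with at least 200 UMIs were inside 1.5-fold at both ends of the order. Ndufa1 (1.38 and 1.83, 0.41), Atp5k (3.90 and 5.13, 0.40) and Sdhaf1 (0.262 and 0.34, 0.37) had the highest ratios. Cox7a2l (6.003 and 4.66, -0.36), the complex I assembly factor Ndufaf3 (0.469 and 0.368, -0.35) and Sdhb (4.74 and 3.73, -0.35) had the lowest. Cox7a1 had 1.33 and 1.69 (0.35). Below that limit, with 193 UMIs, Ndufaf6 had 0.297 and 0.161 (-0.88, -1.32 to -0.45).

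In stem-like cells the sums were 410 and 449 for nuclear (0.13) and 728 and 740 for mitochondrial genes (0.02). The median stem-like cell held less in the Taf4IEC library, with mitochondrial shares of 6.97% in the control and 4.25% there. In stem-like cells of at least 2000 UMIs these medians were 6.99% and 6.04%. Of 89 nuclear members 3 were higher, Ndufa1 (1.33 and 2.06, 0.63) and the complex II assembly factors Sdhaf2 (0.192 and 0.314, 0.71) and Sdhaf4 (0.367 and 0.570, 0.63), and 0 were lower, where 13.4% of all genes were higher and 3.76% lower. The lowest ratios were those of Cox7a2l (5.10 and 3.74, -0.45), Ndufs7 (3.85 and 3.22, -0.26) and Ndufa6 (7.25 and 6.17, -0.23). Mitochondrial complex IV had 421 and 386 (-0.13), and mt-Cytb 64.4 and 81.2 (0.33). The stem-like cells of the 2 libraries differed in median depth, at 21933 and 2939 UMIs, and in Gm42418, at 19.2 and 50.5 per 10000.

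In Paneth/goblet-like cells both sums were lower in the Taf4IEC library, at 305 and 274 for nuclear (-0.16) and 672 and 581 for mitochondrial genes (-0.21). The nuclear ratio turned to 0.18 when only cells of at least 2000 UMIs were clustered. That setting put 253 Taf4IEC cells in the class, beside 108 of that depth in the main clustering. In the main clustering the Paneth/goblet markers of this class summed to 674 per 10000 in the control and 1596 in the Taf4IEC library, and every other level is a share of the same total. Their part in the lower sums was not tested. Of 78 nuclear members, 2 were called lower, the complex I iron-sulphur subunits Ndufs7 (2.95 and 1.82, -0.70) and Ndufs8 (1.17 and 0.776, -0.59), and 0 higher, where 7.55% of all genes were higher and 6.24% lower. In enteroendocrine-like cells the sums were 321 and 330 (0.04) and 668 and 698 (0.06). There 5 of 79 nuclear members were higher, Sdhaf4 (0.98), Ndufa1 (0.96), Atp5g3 (0.62), Atp5k (0.62) and Ndufv3 (0.59), where 15.9% of all genes were higher and 4.54% lower. Unnamed cells were 845 of 1811 in the Taf4IEC library. Their nuclear ratio (0.30) was larger than in any named class, and the mitochondrial one was 0.16. In these sums deep cells weigh most. A Taf4IEC cluster of 134 cells (median 37117 UMIs) had 517 nuclear and 929 mitochondrial, and 1 of 507 cells (median 620) had 500 and 340. The median unnamed cell held 6.45% of mitochondrial UMIs in the control and 3.09% in the Taf4IEC library. Of 88 nuclear members in unnamed cells 11 were higher and 1, Ndufaf6, lower, where 16.8% and 12% of all genes were.

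Of the 5 highest and 5 lowest members over all cells, Ndufa1, Atp5k, Cox7a2l and Atp5g2 kept their side in all 5 groups of cells, counting intervals included. The groups are parts of the total by which these genes were picked, so a shared side is partly built in. No count is given of the other members that kept theirs. Ndufa1 had ratios of 0.63 in stem-like, 0.41 in enterocyte-like, 0.39 in Paneth/goblet-like, 0.96 in enteroendocrine-like and 0.76 in unnamed cells. Atp5k had 0.55, 0.40, 0.44, 0.62 and 0.87 in the same order. Cox7a2l had -0.45, -0.36, -0.28, -0.49 and -0.17, and Atp5g2 -0.18, -0.25, -0.30, -0.32 and -0.31. Cox7a1 had 0.58, 0.35, 0.09, 0.59 and 1.95, the last from 0.174 to 0.674 per 10000 in unnamed cells. In Paneth/goblet-like cells it had 54 UMIs in each library (-0.48 to 0.67), so no side was shown there. Ndufs8 was lower in all 5 groups, but in stem-like cells its ratio was -0.01 (-0.15 to 0.12), which shows no side. The unnamed Taf4IEC cells included 1 deep cluster of 134 cells with 0.801 of Cox7a1.

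Summed over shallow and over deep cells, mitochondrial levels were higher in the deep cells and nuclear levels were not. Single clusters did not all follow. In the Taf4IEC library an unnamed cluster of 132 cells (median 1001.5 UMIs) had 859 per 10000 of mitochondrial genes. The Paneth/goblet-like cluster (median 26294.5) had 581. In cells under and at or above 2000 UMIs the mitochondrial genes had 472 and 748 per 10000 in the control (log2 0.66) and 365 and 834 in the Taf4IEC library (1.19), whereas the nuclear members had 429 and 412 (-0.06) and 467 and 448 (-0.06). The comparison of the libraries accordingly differed by depth for mitochondrial genes, at -0.37 in shallow and 0.16 in deep cells, and was 0.12 for nuclear members in both. In shallow cells mitochondrial complex IV had 299 in the control and 203 in the Taf4IEC library (-0.56), and mt-Co1 and mt-Co2 were called lower and mt-Nd4l higher. The overlapping and more abundant mt-Nd4 had 16.9 and 17.1 there, so the call of mt-Nd4l is uncertain. Of 71 nuclear members tested there, Atp5k and Ndufa1 were higher and Cox7a2l lower, where 14.2% of all genes were higher and 6.47% lower. In deep cells Cox7a1 and Ndufa1 were higher of 89 and 0 were lower, where 15.8% of all genes were higher and 7.59% lower.

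Across single cells of at least 2000 UMIs the spread within a library was wider than the distance between the libraries. Mitochondrial genes took a median of 7.12% of a control cell's UMIs (0.12% to 14.9%) and 7.31% of a Taf4IEC cell's (0.127% to 14.9%). In enterocyte-like cells the medians were 8.30% and 10.0%, and the 10th percentiles 4.29% and 2.28%. Nuclear members took 3.99% and 4.47% over all and 5.76% and 5.74% in enterocyte-like cells. The authors kept cells under 15% mitochondrial reads, which bounds these values, and 33 control (1.29%) and 30 Taf4IEC cells (1.66%) lay within 1 point of that limit. Over cells of any depth the median mitochondrial share was 6.75% in the control and 4.44% in the Taf4IEC library, so its direction depended on the depth limit.

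Other mitochondrial genes, 93 in a list by role outside the prefixes, had a median ratio of 0.06 over all cells, with 5 higher and 2 lower, fewer in each direction than the 16% and 7.44% of all genes. The copper chaperone Cox17 (1.27 and 2.07, 0.70), the oxidase assembly factor Pet100 (0.485 and 0.828, 0.77), the carrier Ucp2 (1.51 and 2.40, 0.67), the citric acid cycle gene Ogdh (0.557 and 0.862, 0.63) and Mterf1a, a termination factor of mitochondrial transcription (0.0343 and 0.0668, 0.96), were higher. The oxidase assembly factor Cox18 (0.264 and 0.145, -0.87) and Idh2 (1.98 and 1.13, -0.81) were lower. Of the regulators of respiratory genes none was called, with Ppargc1a at 0.53, Esrra at 0.51, Gabpa at -0.12, Nrf1 at -0.39 and Ppargc1b at -0.39, and Tfam, which packages mitochondrial DNA and starts its transcription, had 0.577 and 0.409 (-0.50).

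The same list in enterocyte-like over stem-like cells of the control held 16 higher and 22 lower of 83, where 20.6% of all genes were higher and 42.7% lower, so that fewer of the list were lower than of all genes. Of 9 genes of mitochondrial DNA and its expression 7 were lower and 0 higher (median -1.22), Tfam among them (-1.28), and of 9 import genes 4 were lower and 0 higher, a share lower near that of all genes. Of 17 citric acid cycle genes 5 were higher and 1 lower, and of 14 glycolysis genes 9 were higher and 0 lower (median 0.89). Ppargc1a, a coactivator of oxidative metabolism, had a ratio of 2.94 in the control and 2.26 in the Taf4IEC library, and Esrra 1.14 and 1.19. Over all cells glycolysis genes had a median of 0.12 between the libraries, with Hk2 alone of 15 higher.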

How the data were processed

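The deposited files hold UMI counts per gene and cell of 2 libraries, 1 control and 1 Taf4IEC. The authors aligned reads to mm10 with Cell Ranger 3.1, and their notes also name Seurat 3.1.4 and bcl2fastq 2.17.1.14. Their filter left cells of 200 to 6000 detected genes whose mitochondrial share was below 15%. No normalised value was used.

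Counts were summed over cells with Python 3.11.15, numpy 2.4.6, pandas 2.3.3 and scipy 1.17.1, and given per 10000 UMIs of all genes with exact Poisson intervals. Ratios have exact conditional binomial intervals and shares Clopper-Pearson intervals, all at 95% and for counting error only. Genes needed 200 UMIs over both libraries (in a class, over the cells compared) to be called at 1.5-fold. With 1 library per group no test was possible.

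Cells of each library were clustered with Seurat 5.3.0 in R 4.3.3 (2000 variable genes without the members, UMI count regressed out, 20 principal components, resolution 0.9). A cluster was named from at least 3 marker genes at 1.5 times their mean level over the 2 libraries, and stayed unnamed where its leading genes went against the name. The classes were rebuilt, so they may differ from those of the study. No doublet caller was run. The deepest 5% of cells were left out as an alternative instead. The log2 ratios with their intervals, the 1.5-fold calls and the Poisson intervals were tested on simulated gene counts. Clustering, cluster naming, thinning and the motif search were not tested in this way.

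The members, gene lists and alternatives were chosen with earlier results of these data known. Named genes are all mt- genes, Sdha to Sdhd, paralogous and core subunits, the 5 highest and 5 lowest members over all cells, the 3 at each end in the class comparisons, called members and called genes of the other list, the regulators and Taf4. Gm42418 and Hk2 were named after their values were seen. Symbols were matched to RefSeq (GRCm38.p6), where Atp5f1 is Atp5pb and Atp5o.1 is Atp5o.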

Additional observations from a re-analysis of the deposited data

How the results depend on the processing

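Each library was 1 sample, so no alternative carries a test, and depth limits the rare members and the classes with few UMIs. No paired analysis was possible because each group held 1 library. Values are log2 ratios. Over all cells, leaving mt- genes out of the total gave 0.16 for nuclear complex I, 0.20 for III, 0.13 for IV, 0.079 for V, 0.13 for all nuclear and 0.15 for mitochondrial genes. Leaving out mt-, ribosomal protein, Gm42418 and AY036118 genes gave -0.036 (I), -0.056 (II), 0.010 (III), -0.063 (IV), -0.11 (V), -0.060 (all nuclear), -0.043 (mitochondrial), a nuclear median of -0.050, 1 member higher (Cox7a1) and 1 lower (Ndufaf6). With that total 9.65% of all genes were higher and 11.8% lower, against 16% and 7.44%. Thinning cells to 500 UMIs gave 0.21, 0.28, 0.18, 0.17, 0.085, 0.16 and -0.33 (I to V, all nuclear, mitochondrial). The mean over cells gave 0.20, 0.23, 0.18, 0.15, 0.10, 0.16 and -0.33 and 5 members higher. Without the deepest 5% of cells the values were 0.11, 0.084, 0.11, 0.052, 0.034, 0.073 and 0.091. Cells of at least 2000 UMIs gave 0.16 for mitochondrial genes, and subunits alone gave 0.085 for complex II. At 50 UMIs 1 member was lower, with 1 UMI in each library 2 were lower, and at 2-fold 1 was higher.

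For the classes, resolution 0.5 gave -0.047 for nuclear genes in enterocyte-like, and 0.093 (nuclear) and 0.030 (mitochondrial) in enteroendocrine-like cells, and it named no Taf4IEC stem-like and no control Paneth/goblet-like cells, so no value could be had there. The mitochondrial ratio in stem-like cells was 0.15 at resolution 1.4, 0.15 with members kept in clustering, 0.13 with the libraries clustered together, 0.10 with only cells of at least 2000 UMIs clustered, 0.10 with markers from 2 times, and 0.055 in named cells of at least 2000 UMIs, an alternative chosen after seeing the data. In enteroendocrine-like cells the mitochondrial ratio was 0.12 at resolution 1.4, 0.017 with members kept, 0.0092 with libraries together, 0.021 with cells of at least 2000 UMIs clustered and 0.082 in named cells of at least 2000 UMIs, and the nuclear ratio 0.077 with libraries together and 0.081 with cells of at least 2000 UMIs clustered. The stem-like nuclear ratio was 0.10 with libraries together. In enterocyte-like cells the nuclear and mitochondrial ratios were -0.0079 and 0.25 with members kept, -0.045 and 0.22 with libraries together, and -0.00099 and 0.26 with mt- genes out of the total, and the mitochondrial one 0.24 with cells of at least 2000 UMIs clustered. In Paneth/goblet-like cells they were -0.14 and -0.15 with members kept, 0.18 and -0.11 with cells of at least 2000 UMIs clustered, and -0.17 and -0.22 without mt- genes, and the mitochondrial one -0.24 with libraries together.

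Enterocyte-like over stem-like ratios, nuclear and mitochondrial, were 0.52 and 0.22 (control) and 0.36 and 0.31 (Taf4IEC) at resolution 1.4, 0.53 and 0.22 and 0.38 and 0.31 with libraries together, and 0.52 and 0.25 and 0.39 and 0.48 without mt- genes. With members kept they were 0.19 (control, mitochondrial) and 0.36 and 0.29 (Taf4IEC), with cells of at least 2000 UMIs clustered 0.51 (control, nuclear) and 0.36 and 0.37 (Taf4IEC), with markers from 2 times 0.22 (control) and 0.35 (Taf4IEC) for mitochondrial genes, and in named cells of at least 2000 UMIs 0.41 (Taf4IEC, mitochondrial). With 1000 UMIs as the limit between shallow and deep cells, the ratios of the libraries were 0.19 (nuclear) and -0.30 (mitochondrial) in shallow and 0.15 (mitochondrial) in deep cells. The other 71 values of the comparisons moved by less than the counting error (1.5 times for counts).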
